A study of Mus musculus with 6 samples.

Results

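Mitochondrial ribosomal proteins were followed in the visceral fat of aged mice as the protein-coding genes whose symbol begins with Mrpl or Mrps and a number. The rule uses names alone and no measured value. It found 78 genes among the 46603 identifiers in the count tables, 49 with a large-subunit symbol (Mrpl) and 29 with a small-subunit symbol (Mrps). RNA was sequenced from visceral adipose tissue of the abdomen of untreated C57/Bl6 mice 18 months old. The WT group held 3 libraries from wild-type mice and the NM1 KO group 3 libraries from mice without nuclear myosin 1 (NM1). NM1 is an isoform made from Myo1c, a gene for an unconventional myosin, and works in the cell nucleus, where it binds RNA polymerase complexes and chromatin. The labels do not say whether the 3 replicates of a genotype came from separate animals, so each p-value reflects no more than the variation among these 6 libraries, which may be technical. They also do not say which cells carry the deletion.

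The mitochondrial ribosome translates the few messenger RNAs of the mitochondrial genome, which encode core subunits of the respiratory chain and of ATP synthase. Its RNAs come from the mitochondrial genome, while all of its proteins are encoded in the nucleus, made in the cytosol and imported. The large subunit forms the peptide bond and the small subunit decodes the messenger RNA. Part of the proteins descend from bacterial ribosomal proteins and the others were added during mitochondrial evolution. In white adipocytes, mitochondria supply ATP and intermediates for lipid synthesis, and mitochondrial translation is needed to assemble the respiratory chain. The symbols do not always match the place in the structure: Mrps30 and Mrps18a sit in the large subunit, and Mrps36 belongs to the 2-oxoglutarate dehydrogenase complex.

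Total counts per library lay between 24677758 and 33537818, and levels are given as CPM, counts scaled to the TMM-adjusted size of each library. Of the 78 genes, 77 passed the filter on low counts, and 75 had a mean above 10 CPM. The lowest count of a tested gene in any library was 46. Myo1c was not called by edgeR (log2 fold change -0.47, adjusted p = 0.151) or DESeq2 (adjusted p = 0.0513), and limma-voom called it lower (adjusted p = 0.0382). Its levels were 759 to 801 CPM in WT and 452 to 697 CPM in NM1 KO, without overlap. Since the counts of Myo1c add up all isoforms, they do not check the loss of NM1. Of 10 adipocyte markers 0 were called by edgeR, with 3 lower and 0 higher at an unadjusted p under 0.05 and 2 called lower by DESeq2. Of 9 macrophage markers 6 were called higher, where 2.79% of all genes were, and of 9 endothelial markers 6 were called lower, where 1.47% were. Of 6 mesothelium markers 2 were called lower. Of 6 stromal progenitor markers 2 were called higher, while 3 had a positive and 3 a negative log2 fold change. The 6 T and B lymphocyte markers, of which 0 were called (1 higher at an unadjusted p under 0.05, 0 by DESeq2), summed to 191 CPM in NM1 KO replicate 1 and to 27.4 to 76.5 CPM in the other libraries. Of 7 brown or beige adipocyte markers 4 were tested, all 4 with a positive log2 fold change, and 1 was called higher by edgeR and by DESeq2. The 7 summed to 11.2 to 18.1 CPM in WT and to 23.0 to 29.9 CPM in NM1 KO. Markers of pancreas and epididymis summed to at most 0.0801 CPM in any library.

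Promoter windows from RefSeq, on GRCm38.p6, run from 250 bases before to 50 after a gene's start and were found for 69 of the 78 genes, 75 windows in all. Windows are shown for Mrps18a and Mrpl2, the genes of each subunit symbol with the smallest p, then for Mrps12, which codes for a protein of the decoding centre, and for Mrps11 and Mrpl46, which join a small-subunit and a large-subunit gene at 1 start region. They lie at chr17:46110754-46111053 (plus strand, Mrps18a), chr17:46645971-46646270 (plus strand, Mrpl2), chr7:28741772-28742071 (minus strand, Mrps12), chr7:78782881-78783180 (plus strand, Mrps11) and chr7:78783040-78783339 (minus strand, Mrpl46). Each is written 5′ to 3′ on the gene's strand. Capitals mark matches on either strand. The letters searched were CCGGAAG for ETS factors such as GABPA, AAGATGGC for the factor YY1, GCATGCGC for the factor NRF1 and GGGCGG for Sp1 (the GC box). They were also CCAAT for the factor NF-Y, CACGTG for the E-box bound by MYC, and TATAAA for the TATA box.
Mrps18a: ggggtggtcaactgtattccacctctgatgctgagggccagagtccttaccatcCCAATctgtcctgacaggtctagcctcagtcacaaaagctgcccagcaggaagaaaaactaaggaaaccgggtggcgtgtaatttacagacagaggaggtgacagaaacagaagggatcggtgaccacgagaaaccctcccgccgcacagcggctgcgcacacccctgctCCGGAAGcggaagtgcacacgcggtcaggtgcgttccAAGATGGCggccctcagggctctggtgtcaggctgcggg
Mrpl2: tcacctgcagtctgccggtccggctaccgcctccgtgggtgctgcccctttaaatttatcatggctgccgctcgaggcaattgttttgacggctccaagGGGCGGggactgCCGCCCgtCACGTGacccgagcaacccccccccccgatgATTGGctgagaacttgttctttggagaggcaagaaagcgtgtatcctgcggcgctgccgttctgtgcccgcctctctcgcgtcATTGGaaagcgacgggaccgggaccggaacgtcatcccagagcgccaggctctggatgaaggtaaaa
Mrps12: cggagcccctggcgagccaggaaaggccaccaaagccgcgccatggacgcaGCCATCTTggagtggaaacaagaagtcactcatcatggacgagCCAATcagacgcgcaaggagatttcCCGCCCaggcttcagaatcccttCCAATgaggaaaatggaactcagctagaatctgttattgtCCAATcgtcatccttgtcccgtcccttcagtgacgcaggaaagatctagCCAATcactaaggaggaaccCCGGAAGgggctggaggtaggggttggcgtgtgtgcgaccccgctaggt
Mrps11: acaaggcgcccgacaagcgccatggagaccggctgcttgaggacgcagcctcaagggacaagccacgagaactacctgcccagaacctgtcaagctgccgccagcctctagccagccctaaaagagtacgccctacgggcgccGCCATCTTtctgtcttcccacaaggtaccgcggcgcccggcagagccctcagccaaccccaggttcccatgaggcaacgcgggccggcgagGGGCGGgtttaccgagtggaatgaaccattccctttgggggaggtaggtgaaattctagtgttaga
Mrpl46: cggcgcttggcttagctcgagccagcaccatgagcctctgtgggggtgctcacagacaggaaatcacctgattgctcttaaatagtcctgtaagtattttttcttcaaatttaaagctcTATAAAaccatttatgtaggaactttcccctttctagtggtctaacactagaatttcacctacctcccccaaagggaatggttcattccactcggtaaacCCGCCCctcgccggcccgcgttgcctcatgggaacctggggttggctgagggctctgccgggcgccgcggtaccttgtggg
The windows of Mrps18a and Mrps12 each hold an ETS and a YY1 match. That of Mrps12 holds 4 CCAAT matches as well. The windows of Mrps11 and Mrpl46 overlap on opposite strands, and the GC box marked in each is the same stretch of bases.

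Over the 75 windows, the ETS match stood in 34.7%, against 8.86% of all 32851 windows in the RefSeq table and 15.9% of the windows of protein-coding genes tested. The YY1 match stood in 16.0%, against 2.75% and 3.97%. For NRF1 the shares were 10.7%, 2.71% and 4.74%, with 7 of the 8 matched windows before Mrpl genes. The NRF1 letters were shortened from 10 to 8 after a first search had been seen, in which the longer form gave 4.00%, 0.971% and 1.88%. The GC box was in 52.0%, against 35.7% and 60.2%, and CCAAT in 40.0%, against 37.4% and 37.2%. The E-box was in 9.33%, against 7.15% and 9.47%, and TATAAA in 6.67%, against 13.6% and 7.58%. ETS matches were in 40.7% of small-subunit and 31.3% of large-subunit windows, and YY1 matches in 22.2% and 12.5%. Some genes have several overlapping windows, so windows are not independent. The 25 tested genes with an ETS match had a median log2 fold change of -0.09, as did the 43 without. The 12 with a YY1 match had a median of -0.18 and the 56 without one -0.09. The gap was wider for the E-box, with -0.23 over 5 genes with a match and -0.09 over 63 without. For NRF1, the GC box, CCAAT and TATAAA the medians with a match were -0.09, -0.10, -0.10 and -0.09. Those without a match were -0.10, -0.09, -0.09 and -0.09. A match is a stretch of letters and was not measured as a bound site.

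All genes of the group with counts were present in every library, and they differed in level by orders of magnitude once divided by length. On the scale of CPM per kilobase of exonic length over the 6 libraries, the small-subunit symbols ran from 2.57 for Mrps35 to 84.9 for Mrps21, with a median of 8.71 over 29 genes. The large-subunit symbols ran from 0.504 for Mrpl23 to 52.0 for Mrpl34, with a median of 17.3 over 48 genes. After Mrps21 the highest small-subunit levels were those of Mrps6 (48.6 CPM per kilobase) and Mrps28 (34.7), and after Mrpl34 the highest large-subunit levels were those of Mrpl54 (45.1) and Mrpl2 (42.3). The low end held Mrps30 (2.78) and Mrps10 (3.76), and Mrpl47 (2.34). Exonic length takes in every annotated transcript, retained introns included, which lowers the value of genes with long untypical transcripts.

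Mrpl53 was at 0 counts in all 6 libraries, where a count of 0 allows a level of up to 0.0915 to 0.120 CPM by counting error alone. Of its exonic bases 88.0% overlap Gm42688 on the same strand and Ccdc142os on the opposite strand, so its absence from the counts was not told apart from reads that fit more than 1 gene. Mrpl23, at 2.24 to 3.48 CPM in WT and 1.48 to 3.08 CPM in NM1 KO, was the lowest of the tested genes. Its pseudogene copy Mrpl23-ps1 held 21.0% as many counts as Mrpl23 itself. In all, 33 genes share exonic bases with another gene, 20 have a near-identical pseudogene copy and 33 have neither, so levels of the other 45 are less certain.

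Added up, transcripts of the group came to 2723, 2969 and 2607 CPM in the WT libraries, in the order of their replicate numbers, and to 2451, 2718 and 2584 CPM in the NM1 KO libraries. WT replicate 2 was the highest and NM1 KO replicate 1 the lowest, and the ranges of the groups overlapped. The means were 2766.5 ± 185 CPM in WT and 2584 ± 133 CPM in NM1 KO (SD, n = 3), so NM1 KO stood at 93.4% of WT, a difference about as large as 1 SD between replicates.

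Large-subunit symbols summed to 1735, 1899 and 1676 CPM in WT and 1576, 1745 and 1653 CPM in NM1 KO. Small-subunit symbols summed to 988, 1070.0 and 931 CPM in WT and 876, 972 and 931 CPM in NM1 KO. In both subunits WT replicate 2 was at the top and NM1 KO replicate 1 at the bottom, and the groups overlapped. The means were 1770.2 ± 115 and 1658 ± 85.0 CPM for the large subunit and 996 ± 69.9 and 926 ± 48.6 CPM for the small subunit. The large-to-small ratio of these sums was 1.78 ± 0.0224 in WT (range 1.76 to 1.80) and 1.79 ± 0.0121 in NM1 KO (1.78 to 1.80). With Mrps30 and Mrps18a counted in the large subunit and Mrps36 left out, the ratio was 2.02 ± 0.0281 and 2.01 ± 0.00823. The ratio of the subunits therefore varied by a few percent between libraries, and the groups overlapped under both assignments.

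**Figure D1:**
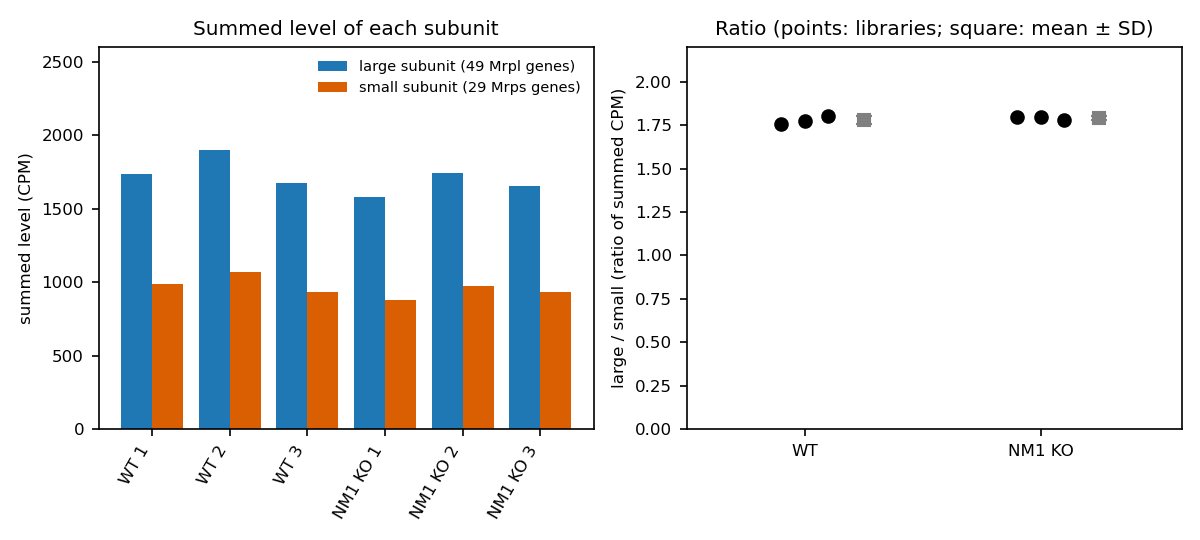
Left, summed level in CPM (axis from 0) of the large-subunit (blue) and small-subunit (orange) genes in each of the 6 libraries. Right, the large-to-small ratio in each library (points) with the mean and SD of each group (square and bar, n = 3), where all 6 points lie between 1.76 and 1.80.

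The bars of the plot of summed levels move up and down together from library to library, while the points of its right side stay level. Single genes showed the same extremes. WT replicate 2 had the highest level for 42 of 77 genes, or 54.5%, against 20.5% of all genes tested, and the lowest for 0. NM1 KO replicate 1 had the lowest level for 36 of 77, or 46.8%, against 25.8% of all genes, and WT replicate 3 for 20. NM1 KO replicate 1 is also the library with the high sum of lymphocyte markers, whose part in the mitoribosomal values was not tested. By subunit, NM1 KO replicate 1 was lowest for 21 of 48 large-subunit and 15 of 29 small-subunit genes.

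Between NM1 KO and WT, edgeR called 0 of 77 genes at an adjusted p under 0.05, where 4.25% of the 15828 genes tested were called. Without adjustment 7 genes passed a p of 0.05 with a lower level in NM1 KO (3 large, 4 small) and 0 with a higher one, against 10.8% of all genes lower and 13.0% higher. With 1 library left out, the number lower at that p ran from 0 (without NM1 KO replicate 1) to 11 (without NM1 KO replicate 2). It was 2, with 1 higher, without WT replicate 2, and 3 without WT replicate 1 or without NM1 KO replicate 3. With an offset for GC content and length it was 11, with 2 higher, and with the replicate block it was 4. The share of all genes at that p was not worked out for these fits, so the shifts cannot be read as particular to the group. Over all genes, adjusted calls of lower genes also moved. They were 232 in the main fit, 324 with the offset and 78 with the block. With 1 library left out they ran from 0 (without WT replicate 2 or 3) to 473 (without NM1 KO replicate 2). DESeq2 called 2 genes lower, Mrpl2 (adjusted p = 0.0468) and Mrps18a (adjusted p = 0.0445), where it called 5.93% of all genes lower. limma-voom called 0, against 4.32% of all genes lower. Without NM1 KO replicate 2, edgeR called 1 gene, Mrpl49, lower (2.91% of all genes were called lower in that fit).

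The log2 fold changes, NM1 KO minus WT, were small and leaned to the negative side. They ran from -0.44 (Mrps18b) to 0.22 (Mrpl27), with 57 negative and 20 positive, so 74.0% were negative against 50.3% of all genes. With upper-quartile size factors 67 were negative, and the median over all genes moved down as well, to -0.04. Without WT replicate 2 or without WT replicate 3 the number negative was 48 and 69, with medians over all genes of 0.01 and -0.01. In the main fit the median was -0.09, against -0.00 over all genes, with -0.08 for the 48 large-subunit and -0.12 for the 29 small-subunit genes. Leaving out WT replicate 2 or NM1 KO replicate 1 brought the large-subunit median to -0.03 in each case, and leaving out WT replicate 3 or NM1 KO replicate 2 brought it to -0.13. The small-subunit median was -0.07 without NM1 KO replicate 1. The difference between the subunit medians was 0.04 and lay between -0.01 and 0.07 with 1 library left out, so no order of the subunits can be read from it.

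**Figure D2:**
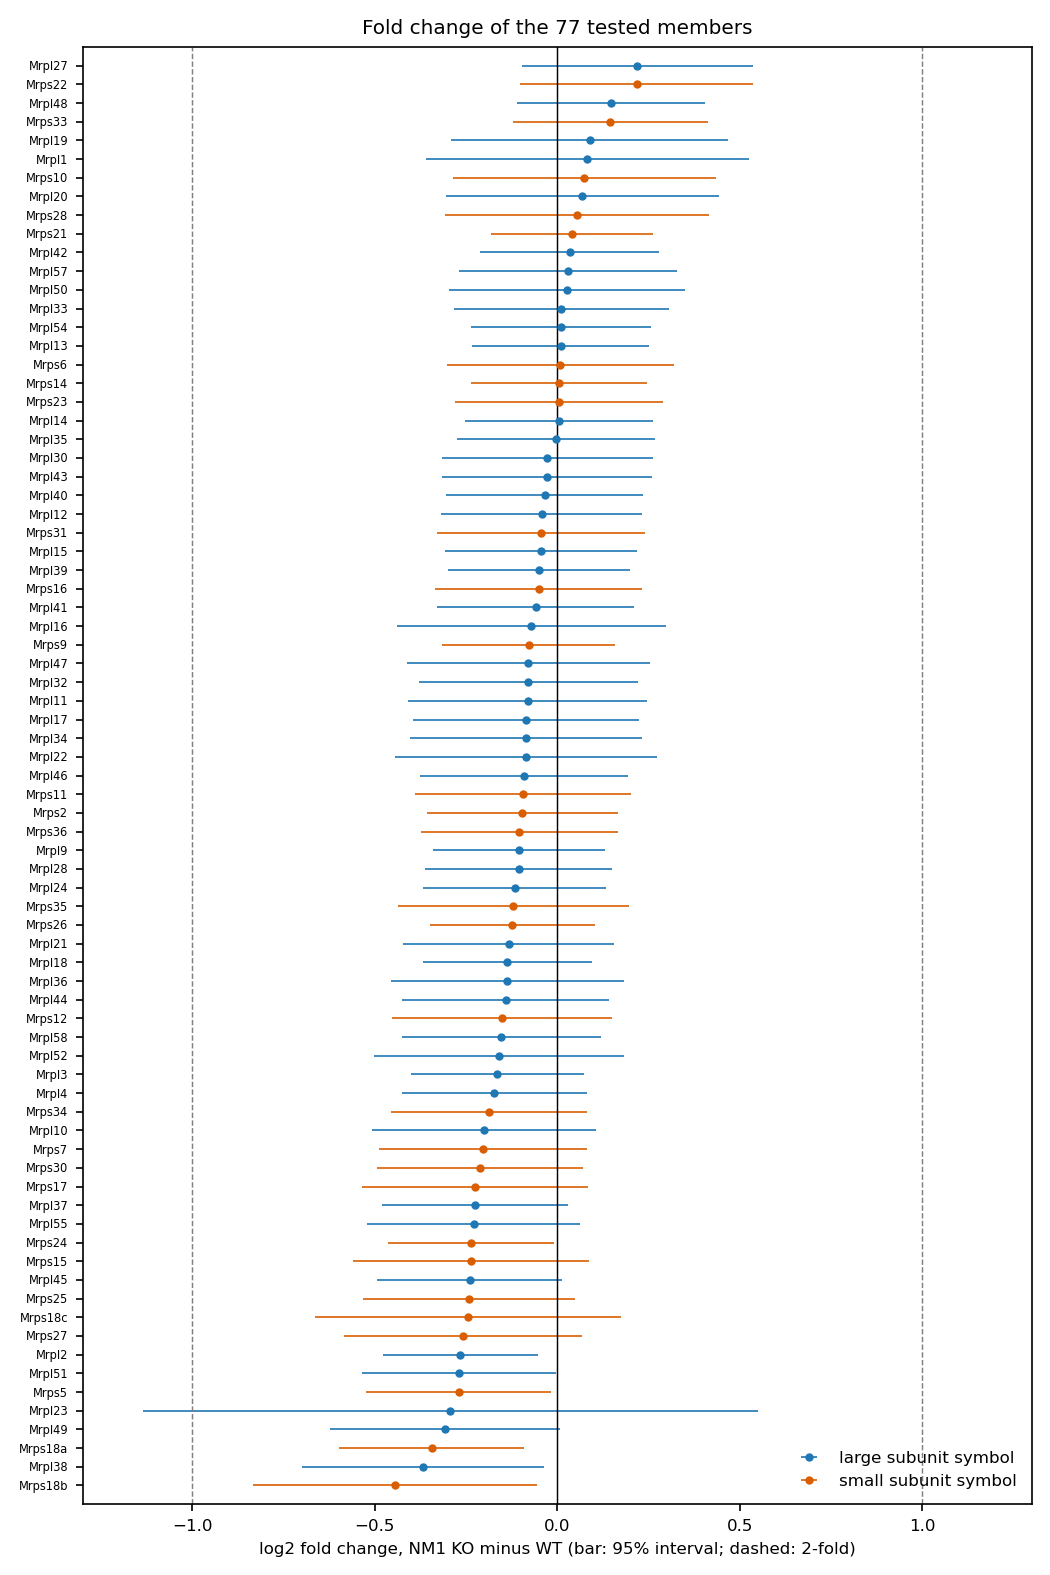
Log2 fold change (x axis, NM1 KO minus WT) of the 77 tested genes, ordered by value, with the 95% interval from edgeR as a bar, for large-subunit (blue) and small-subunit (orange) symbols. The points lie between -0.44 and 0.22, and all bars but that of Mrpl23 stay between the dashed lines at a 2-fold difference.

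Each interval covers the variation among these libraries for 1 gene at a time, under 1 normalization. The GC and length offset placed some values outside their intervals. The 95% interval of the fold change stayed within 2-fold for 76 of 77 genes and within 1.5-fold for 71 (45 of 48 large, 26 of 29 small). The median interval reached 0.28 on the log2 scale to each side. Replicates of these genes were close together: the median coefficient of variation was 8.26% in WT and 7.12% in NM1 KO, against 13.9% and 15.6% over all genes tested. Among the 5248 genes with levels in the range of the group (15.7 to 64.0 CPM) it was 9.83% and 11.5%. The size of the log2 fold change stayed under 0.26 for 90% of the group, against 1.01 over all genes and 0.67 in that range of levels, where 5.11% of genes were called.

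For 16 of 77 genes, or 20.8%, every NM1 KO library lay below every WT library, against 15.0% of all genes tested. For 0 of 77 every NM1 KO library lay above, against 14.9%. The 16 split into 8 large-subunit and 8 small-subunit symbols. Among proteins with a bacterial homologue 5 of 46 genes had such separate ranges, and among mitochondria-specific proteins 11 of 30. Medians of the log2 fold change were -0.08 over the 30 bacterial-type and -0.12 over the 20 tested mitochondria-specific proteins of the large subunit, and -0.10 over 16 and -0.12 over 10 in the small subunit.

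**Figure D3:**
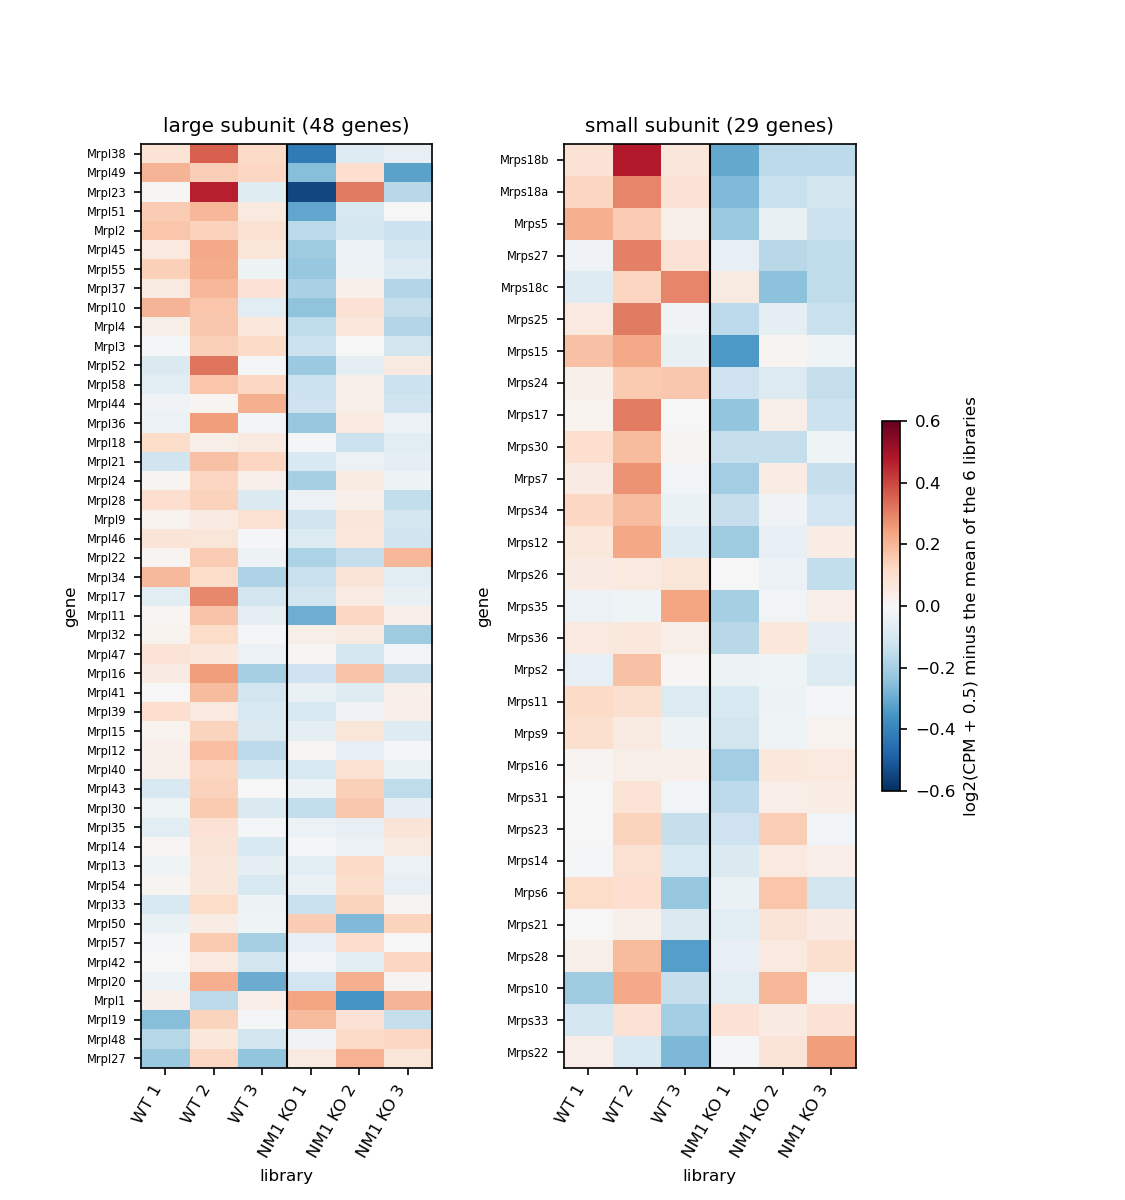
Each row is 1 tested gene and each column 1 library, coloured by log2(CPM + 0.5) minus the mean of the 6 libraries, from blue (low) to red (high), with rows ordered by fold change within each subunit. The columns of WT replicate 2, highest for 42 genes, and of NM1 KO replicate 1, lowest for 36, stand out in both subunits.

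In the heat map the upper rows are red in WT and blue in NM1 KO, which the ordering by fold change sets. The lower rows show no such split. Among the large-subunit genes, Mrpl2 (chr17:46646229-46650139, plus strand on GRCm38), whose bacterial relative binds the RNA near the peptidyl transferase centre, had the smallest p. Mrpl2 stood at 55.4, 54.3 and 52.5 CPM in WT and at 44.1, 45.8 and 45.03 CPM in NM1 KO. The groups did not overlap, and the libraries of each lay close together. The log2 fold change was -0.27 ± 0.09 (SE), with a 95% interval from -0.48 to -0.05 and an edgeR adjusted p of 0.136. With the offset for GC content and length it was -0.06 (adjusted p = 0.742). That offset left stronger trends with GC and length among these genes, given below, so its values are not corrected ones.

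Mrpl38 (chr11:116131817-116138868, minus strand), a mitochondria-specific protein of the large subunit, stood at 51.1, 62.0 and 52.5 CPM in WT and at 35.9, 45.7 and 46.7 CPM in NM1 KO. NM1 KO replicate 1 was the lowest by a wide step, and the groups did not overlap. Its log2 fold change was -0.37 ± 0.14 (adjusted p = 0.174), with -0.16 under the GC and length offset (0.491) and -0.24 without NM1 KO replicate 1. Mrpl51, also mitochondria-specific, stood at 76.1, 78.8 and 71.4 CPM in WT and at 55.1, 64.1 and 68.5 CPM in NM1 KO. The highest NM1 KO library came near the lowest WT library, and the log2 fold change was -0.27 ± 0.11 (adjusted p = 0.205), with -0.17 without NM1 KO replicate 1.

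Mrpl49 (chr19:6053622-6057785, minus strand), another mitochondria-specific protein, stood at 54.8, 52.6 and 51.7 CPM in WT and at 39.7, 50.9 and 37.9 CPM in NM1 KO. NM1 KO replicate 2 lay next to the WT libraries and the other NM1 KO libraries well below them. The log2 fold change was -0.31 ± 0.13 over all libraries (adjusted p = 0.220) and -0.45 without NM1 KO replicate 2.

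Among the small-subunit symbols, Mrps18a (chr17:46110986-46128910, plus strand) had the smallest p. It is 1 of 3 mammalian relatives of a bacterial small-subunit protein, and the one built into the large subunit. Mrps18a stood at 43.7, 48.9 and 42.4 CPM in WT and at 33.1, 36.3 and 37.0 CPM in NM1 KO. The groups did not overlap. The log2 fold change was -0.34 ± 0.11, with a 95% interval from -0.60 to -0.09 and an adjusted p of 0.117. With the GC and length offset it was -0.19 (adjusted p = 0.330).

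Mrps18b (chr17:35910379-35916389, minus strand), the relative found in the small subunit as a mitochondria-specific protein, had the lowest fold change of the group. Mrps18b stood at 14.0, 18.5 and 13.8 CPM in WT and at 10.6, 11.8 and 11.8 CPM in NM1 KO. WT replicate 2 stood apart from the other WT libraries, and the groups did not overlap. The log2 fold change was -0.44 ± 0.17 (adjusted p = 0.165), and -0.29 without WT replicate 2. Of its exonic bases 30.5% overlap the antisense gene Gm16279, which was called lower (1.39 CPM in WT against 0.428 CPM in NM1 KO, log2 fold change -1.69, adjusted p = 0.0442). Whether the counting used strand is not known, so reads of the overlap cannot be told apart. Mrps18c, the relative closest to the bacterial protein, stood at 8.69, 10.1 and 11.4 CPM in WT and 9.56, 7.66 and 8.23 CPM in NM1 KO, with overlapping groups (log2 fold change -0.24, adjusted p = 0.448). It was -0.37 with the GC and length offset and -0.15 without WT replicate 3.

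Mrps5, a protein near the messenger RNA entry, stood at 40.6, 38.9 and 35.8 CPM in WT and at 29.9, 33.9 and 31.9 CPM in NM1 KO, without overlap (log2 fold change -0.27 ± 0.11, adjusted p = 0.187). Mrps24 stood at 39.9, 43.5 and 43.7 CPM in WT and at 35.8, 36.8 and 35.3 CPM in NM1 KO, without overlap (log2 fold change -0.24 ± 0.10, adjusted p = 0.197). With the GC and length offset the value of Mrps24 was -0.02 (adjusted p = 0.916). Both belong to the small-subunit proteins with a bacterial homologue.

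Genes with known roles beyond the core, or with mutations known in inherited disease, were taken whatever their values. Mrpl12, a protein of the stalk of the large subunit that also binds the mitochondrial RNA polymerase, stood at 40.2, 44.6 and 35.1 CPM in WT and at 39.5, 37.9 and 39.0 CPM in NM1 KO. Mrpl12 overlapped between groups, with a log2 fold change of -0.04 (95% interval -0.32 to 0.23), and its sign turned under 4 alternatives. Mrpl11, at the base of the same stalk, had -0.08 (-0.41 to 0.25). Mrpl58, a peptidyl-tRNA hydrolase built into the large subunit, had -0.15 (-0.43 to 0.12).

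Mrpl3 and Mrpl44, in which mutations cause cardiomyopathy, had log2 fold changes of -0.16 (95% interval -0.40 to 0.07) and -0.14 (-0.43 to 0.14). Mrps22, in which mutations cause a combined respiratory chain deficiency, stood at 22.7, 20.7 and 18.2 CPM in WT and at 22.0, 23.3 and 26.3 CPM in NM1 KO. NM1 KO replicate 1 lay inside the WT range, and the log2 fold change of 0.22 was not called (95% interval -0.10 to 0.54, adjusted p = 0.374). It was 0.13 with the GC and length offset or without WT replicate 3. Mrpl27 had the other value at the top, with 27.8, 35.6 and 27.5 CPM in WT and 33.9, 37.7 and 34.2 CPM in NM1 KO. Its groups overlapped through WT replicate 2 (adjusted p = 0.369), and it was chosen for this place after its values were seen.

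Mrps12, of the decoding centre, had a log2 fold change of -0.15 (95% interval -0.45 to 0.15), and Mrps27, a protein of the RNA-binding pentatricopeptide repeat type, had -0.26 (-0.58 to 0.07), and -0.16 without WT replicate 2. Mrps34, in which mutations cause Leigh syndrome, had -0.19 (-0.46 to 0.08), with 77.8% of its exonic bases shared with Mapk8ip3 or Nme3. Mrps30, of the large subunit, had -0.21 (-0.49 to 0.07) with groups that did not overlap, at 18.7 to 21.2 CPM in WT and 16.7 to 18.2 CPM in NM1 KO, and -0.45 with the GC and length offset. Mrps36, of the 2-oxoglutarate dehydrogenase complex, had -0.10 (-0.37 to 0.17). None of these was called.

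Of the 6 genes with the highest levels per kilobase named above, Mrpl2, with its log2 fold change of -0.27, has been described. The log2 fold changes of the other 5 were smaller in size. Mrps21 stood at 62.7, 64.0 and 59.0 CPM in WT and at 59.9, 66.1 and 64.9 CPM in NM1 KO, with a log2 fold change of 0.04 (95% interval -0.18 to 0.26). Mrps6 had 0.01 (-0.30 to 0.32), Mrps28 0.05 (-0.31 to 0.41), Mrpl34 -0.09 (-0.40 to 0.23) and Mrpl54 0.01 (-0.24 to 0.26). At the low end Mrpl23 had -0.29 with the widest interval of the group (-1.14 to 0.55) and -0.61 to -0.05 with 1 library left out, Mrpl47 -0.08 (-0.41 to 0.25), Mrps35 -0.12 (-0.44 to 0.20) and Mrps10 0.07 (-0.29 to 0.43).

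The 5 mitoribosomal proteins with other symbols (Dap3, Ptcd3, Chchd1, Aurkaip1, Gadd45gip1) had a median log2 fold change of -0.04, with 0 called by edgeR or DESeq2 and 0 at an unadjusted p under 0.05. Dap3, a GTP-binding protein of the small subunit, had -0.14 (adjusted p = 0.462), and Aurkaip1 0.06. Of 23 genes for assembly of the mitochondrial ribosome and modification of its RNA 0 were called, with a median of -0.03, 1 lower at an unadjusted p under 0.05 and 0 called by DESeq2. Noa1, a GTPase of small-subunit assembly, had -0.30 (adjusted p = 0.183) and the RNA helicase Dhx30 -0.22 (0.247).

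Among 12 tested translation factors edgeR called 0, with a median of -0.06 and 1 lower at an unadjusted p under 0.05, and DESeq2 called 1. Beside this and the DESeq2 calls in the lists that follow stands the 5.93% of all genes that DESeq2 called lower. Tufm, the mitochondrial elongation factor Tu that brings aminoacyl-tRNA to the ribosome, stood at 42.0, 42.5 and 36.9 CPM in WT and at 23.0, 31.8 and 28.8 CPM in NM1 KO. Its groups did not overlap, and its log2 fold change of -0.54 ± 0.15 had an edgeR adjusted p of 0.0838, with 0.0160 by DESeq2 and 0.0430 by limma-voom. Mrrf, which recycles the ribosome, had -0.30 (adjusted p = 0.241).

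Among 17 mitochondrial aminoacyl-tRNA synthetases edgeR called 0, with a median of -0.09 and 2 lower at an unadjusted p under 0.05, and DESeq2 called 1. Vars2, which charges the valine tRNA, stood at 28.6, 26.0 and 27.9 CPM in WT and at 18.3, 20.7 and 19.2 CPM in NM1 KO. The ranges lay apart. Its log2 fold change of -0.50 ± 0.11 had an edgeR adjusted p of 0.0562, with 0.00150 by DESeq2 and 0.0241 by limma-voom. Cars2, for cysteine, had -0.29 (adjusted p = 0.200).

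The 14 genes of mitochondrial transcription and RNA stability had a median of -0.12 with 0 called by edgeR and 1 by DESeq2, and 2 lower at an unadjusted p under 0.05. Fastk, a mitochondrial RNA-binding protein, had -0.37 (edgeR adjusted p = 0.105, 0.0284 by DESeq2) and -0.18 with the GC and length offset, and Polg, the mitochondrial DNA polymerase, -0.32 (0.160). Of 83 tested nuclear genes of oxidative phosphorylation 0 were called by edgeR or DESeq2, with a median of -0.08, 74.7% negative, and 3 lower and 1 higher at an unadjusted p under 0.05. Cyc1, cytochrome c1, had -0.29 (0.174), and -0.07 with the offset. Cox6a2, a muscle form of a cytochrome oxidase subunit, had 2.19 at 0.154 CPM in WT and 0.694 CPM in NM1 KO (0.176). Cytosolic ribosomal proteins had a median of -0.05 over 77 tested genes with 0 called by edgeR and 1 by DESeq2 and with 3 lower at an unadjusted p under 0.05, led by Rplp2 at a log2 fold change of -0.32 (0.0991) and Rps12 at -0.40.

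**Figure D4:**
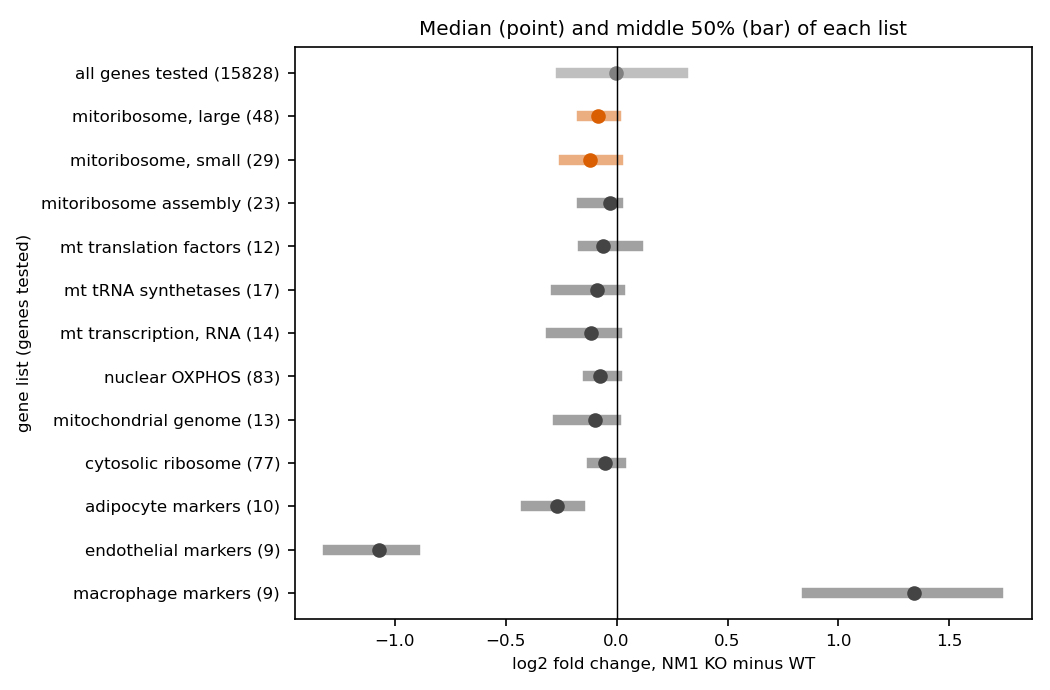
Median log2 fold change (point) and middle 50% of the genes (bar) for each list, NM1 KO minus WT, with the number of genes tested in brackets and the mitoribosomal subunits in orange. Medians of the mitochondrial and ribosomal lists lie between -0.12 and -0.03, while those of endothelial and macrophage markers are -1.07 and 1.34.

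The plot of list medians places both subunits among the other nuclear genes of mitochondria. The 13 protein-coding genes of the mitochondrial genome, which the mitochondrial ribosome translates, had a median of -0.10 with 0 called by edgeR or DESeq2 and 0 at an unadjusted p under 0.05, and their libraries spread far more. As the list's median deviation from the WT mean on the log2(CPM + 0.5) scale, they stood at -0.12, 0.10 and -0.01 in WT and at 0.21, -0.85 and -0.11 in NM1 KO. The mitoribosomal proteins stood at -0.02, 0.10 and -0.08 in WT and at -0.15, -0.04 and -0.10 in NM1 KO. NM1 KO replicate 2, the lowest library for the mitochondrial genome, was the highest NM1 KO library for the mitoribosomal proteins. Of the mitochondrial genome list, mt-Atp6 had -0.55 (adjusted p = 0.324, and -0.70 with 0.0316 under the GC and length offset) and mt-Atp8 -0.52.

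On the same scale nuclear genes of oxidative phosphorylation stood at -0.01, 0.10 and -0.09 in WT and at -0.15, 0.03 and -0.09 in NM1 KO, with the same top and bottom libraries as the mitoribosomal proteins. The 10 adipocyte markers stood at -0.02, 0.02 and 0.02 in WT and at -0.50, -0.05 and -0.27 in NM1 KO. Their summed level was 23147 to 25103 CPM in WT and 17507 to 22396 CPM in NM1 KO, 9 of 10 had a negative log2 fold change, and none was at 0. The NM1 KO libraries thus had the same order for adipocyte markers as for mitoribosomal proteins, while the WT libraries did not. Endothelial markers (-1.43, -0.86 and -1.05 in NM1 KO) and mesothelium markers (-0.87, -0.53 and -0.62) had that NM1 KO order too. Macrophage, stromal progenitor and lymphocyte markers had other orders. The part of the cell makeup in the mitoribosomal values was not tested. In bulk tissue, fewer cells of a type and less RNA per cell cannot be told apart.

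GC content also moved with the fold changes. Spearman's rho between log2 fold change and GC percent was -0.32 over the 77 genes and -0.39 over 13933 protein-coding genes tested, given as a description, since genes of the same libraries are not independent. Within libraries, the rho of a gene's deviation with GC was 0.31, 0.24 and 0.11 in WT and -0.39, 0.24 and -0.43 in NM1 KO. With an offset for GC content and length the median of the 77 genes was -0.10 and 72.7% were negative. Of the protein-coding genes tested 53.8% were negative under it, against 48.8% without it, and the median over all genes was -0.04. The rho of the 77 genes with GC turned to 0.65, and that with exonic length went from 0.01 to -0.71. Within the group the trends were thus larger with the offset than without it, so single values under it cannot be read as corrected ones. The signs of Mrpl12, Mrpl34, Mrps10, Mrps12 and Mrps34 turned with that offset, and the size of each under it was at most 0.15.

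Many genes of the group start close to a neighbour. A protein-coding gene on the opposite strand started within 1000 bases of 33 of the 78 genes, or 42.3%, against 14.9% of protein-coding genes tested. The partners take in Mrps11 and Mrpl46, which are genes of the group themselves. Of the 30 partners tested 1 was called, or 3.33%, against 4.25% of all genes tested. It was Wdfy1, whose start lies 125 bases from that of Mrpl44, with 19.6 CPM in WT and 53.6 CPM in NM1 KO (log2 fold change 1.45, adjusted p = 0.00967), while Mrpl44 had 25.3 and 22.9 CPM. Mrps11 and Mrpl46, with starts 412 bases apart, had a log2 fold change of -0.09 each. Mrps12 starts 172 bases from Sars2, the mitochondrial seryl-tRNA synthetase, which had -0.27 (adjusted p = 0.364).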

How the data were processed

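Whole-number counts per Ensembl gene identifier, 1 table per library, were deposited by the authors with no normalization. Per the labels' protocols, total RNA of visceral fat was made into libraries (NEBNext Ultra II) for a NextSeq instrument. The submitters' processing notes name Trimmomatic 0.36, FastQC, HISAT2 2.0.4, SAMtools 0.1.19, HTSeq and the build GRCm38 (mm10). Not given in the sources used here: the annotation, the counting settings and whether strand was used. Names, positions and biotypes came from GENCODE M21, which matched 46005 of 46603 identifiers. Total counts were 24677758 to 33537818 per library, and intervals and floors cover counting error only where they come from counts of 1 gene in 1 library.

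Counts were fitted with edgeR 4.0.16 in R 4.3.3 over all 6 libraries (filterByExpr, TMM, robust quasi-likelihood fit and two-sided test of genotype, the single term), with Benjamini-Hochberg adjustment over all 15828 genes tested and a threshold of 0.05. The fit was tested on simulated data with changes of at least 2-fold, so that test does not cover the smaller changes seen in this group. SE is the size of the log2 fold change over the root of its F statistic. The common biological coefficient of variation was 25.3%. A chi-square check for a library deposited more than once found none (chi-square per degree of freedom at least 35.9 within groups), which does not show that libraries came from separate animals. Alternatives were DESeq2 1.42.0, limma-voom 3.58.1 with quality weights, upper-quartile size factors, other filters, protein-coding genes only, a replicate block, an offset for GC content and length (splines with 5 degrees of freedom) and leaving out each library. The summed level and ratio of the subunits, medians and counts over lists are descriptions with no test.

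Genes named were, per subunit symbol, the 4 with the smallest p, the 3 highest and 3 lowest in CPM per kilobase, a set with known roles whatever their values, and from each other list the 2 with the smallest p. Bacterial and mitochondria-specific proteins were told apart by hand from the ribosomal protein nomenclature. Copies are pseudogenes that match a transcript at 95% identity or more over at least 200 bases (BLAST 2.17.0). The gene group and the lists were chosen with earlier results of these data known.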

Additional observations from a re-analysis of the deposited data

How the results depend on the processing

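The medians of both subunits stayed negative under every alternative run. The number of mitoribosomal genes called was 0 by edgeR and under all alternatives except DESeq2, with 2, and leaving out 1 library, with 0 to 1. Over all genes, 5, 0 and 0 were called lower without WT replicates 1, 2 and 3. Without NM1 KO replicates 1, 2 and 3 they were 69, 473 and 1. Where so few genes were called at all, 0 calls in the group say little about it. The other mitochondrial and ribosomal lists, 244 genes tested in the main fit, had 0 calls by edgeR. All calls under the alternatives were lower in NM1 KO. There was 1 (Vars2) with a mean of at least 1 CPM or with protein-coding genes only, where 221 and 216 of all genes were called lower. There was 1 (mt-Atp6) with the GC and length offset and with that offset plus the replicate block (324 and 255 of all genes lower). limma-voom called 3 of 244 (Fastk, Tufm, Vars2), against 4.32% of all genes lower. DESeq2 called 4 of 244 (those and Rplp2), against 5.93% of all genes lower. With 1 library left out 0 to 3 were called, the 3 without NM1 KO replicate 2, where 2.91% of all genes were called lower. Large minus small median was 0.037, and 0.0071 with the GC and length offset, 0.0032 with that and the replicate block, 0.0066 without genes that overlap another or have a copy, and -0.0053 to 0.066 with 1 library left out. The cause of these shifts was not tested.

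The labels do not say whether replicate numbers pair the samples. Correlations of deviations between libraries of the same number were -0.06, -0.04 and 0.19. Of 6 libraries 2 correlated best with their own number. With 3 libraries per group this check cannot exclude a pairing. With the replicate block 0 of 77 mitoribosomal genes and 0 of the other lists were called, with medians of -0.08 (large) and -0.12 (small). Over all genes, calls were 441 higher and 232 lower by edgeR, 258 and 78 with the block, 1300 and 939 by DESeq2, 965 and 683 by limma-voom, 605 and 312 with no filter, and between 1 and 0 (without WT replicate 3) and 1181 and 473 (without NM1 KO replicate 2) with 1 library left out.

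Of 435 alternative values of the named genes, 404 kept sign and call, 3 gained a call (those counted above) and 28 small ones changed sign, none of them called. With the GC and length offset, without and with the replicate block, Mrpl12 was 0.15 and 0.15, Mrpl34 0.15 and 0.15, Mrps10 -0.11 and -0.098, Mrps12 0.059 and 0.056, and Mrps34 0.027 and 0.028. With upper-quartile size factors Mrpl54 was -0.027 and Mrps6 -0.028. With protein-coding genes only they were -0.0067 and -0.0078, by limma-voom -0.0049 and -0.021, and Mrpl12 by limma-voom was 0.010. With a mean of at least 1 CPM Mrps6 was -0.000105. With 1 library left out, Mrpl11 ran from -0.17 to 0.051, Mrpl12 from -0.13 to 0.044, Mrpl54 from -0.043 to 0.0496, Mrps6 from -0.10 to 0.068, Mrps10 from -0.0127 to 0.23, Mrps21 from -0.000132 to 0.099 and Mrps28 from -0.0898 to 0.17.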

Other observations

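The 78 genes lie on 17 chromosomes, with 11 on chromosome 11, which also carries Myo1c. The nearest to Myo1c is Mrps23, 12.5 Mb away, with a log2 fold change of 0.00. The 11 genes of chromosome 11 had a median of -0.20, led by Mrpl38 at -0.37, 40.5 Mb from Myo1c, and those elsewhere had -0.09. The median over all genes of chromosome 11 was not worked out, so the gap cannot be read as particular to these genes. With the GC and length offset Mrpl45 was -0.28, Mrpl38 -0.16, Mrpl10 -0.09, Mrpl58 -0.08, Mrpl55 -0.07 and Mrpl22 -0.06. Under it Mrps7 was -0.04, Mrps24 -0.02, Mrps23 0.08, Mrpl12 0.15 and Mrpl27 0.31. Mrpl2 and Mrps18a, the 2 genes called by DESeq2, both lie on chromosome 17, with starts at 46646229 and 46110986. These places were looked up after the values were seen.

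Some genes that share exonic bases with a mitoribosomal gene were called while the mitoribosomal gene was not. Nr2c2, an orphan nuclear receptor on the opposite strand of 69.8% of the exonic bases of Mrps25, was at 6.27 CPM in WT and 24.7 CPM in NM1 KO (log2 fold change 1.98, edgeR adjusted p = 0.0129), and Mrps25 had -0.24 (adjusted p = 0.284). Mapk8ip3, a scaffold of the JNK pathway, shares exonic bases with Mrps34 and had -0.67 (adjusted p = 0.0361). Rrnad1, opposite 26.3% of Mrpl24, had -0.72 (adjusted p = 0.0430), and Mrpl24 had -0.12. The Nme3 gene, which overlaps Mrps34 on the same strand, was listed at 0 in both groups.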
